A study of Rattus norvegicus with 25 samples.

Results

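Wild-type Sar1B was compared with control in stable lines made from McArdle-RH7777, which are rat hepatoma cells known for secretion of lipoproteins with apoB. The comparison used the arrays titled sar1b without H79G and the arrays titled control cell line, 13 of the 25 arrays of the series. These were 8 arrays from 2 Sar1B lines (4 arrays per line) and 5 arrays from 2 control lines (2 and 3 arrays). The Sar1B lines carry a human SAR1B cDNA with a C-terminal FLAG tag behind a tetracycline-inducible promoter, and each line grew from 1 picked clone. The control lines are named in the study's legends as empty vector controls. All lines were kept under selection with blasticidin and Zeocin and received 1 µg/ml tetracycline for 24 h before RNA extraction, so that the drug was common to both groups. A Sar1A line (1 line, 4 arrays) and Sar1B:H79G lines (2 lines, 8 arrays, a mutant that does not hydrolyze GTP) serve for levels and contrasts within the array series of Sar1B. The control arrays form 1 array series and every Sar1 array belongs to another, so that the presence of a Sar1 construct and the array series cannot be told apart in any comparison with control. Arrays of a line are technical replicates, and the line was taken as the sample (n = 2 per group).

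Sar1 is the small GTPase that starts the COPII coat. In its GTP form it inserts into the membrane of the endoplasmic reticulum (ER) and recruits the inner coat of Sec23 and Sec24, which binds cargo, and then the outer cage of Sec13 and Sec31. Hepatocytes use these carriers for plasma proteins and for apoB lipoproteins, and the same carriers take the SCAP-SREBP complex to the Golgi, where SREBP is cut and released to switch on genes of sterol synthesis. COPI carriers return escaped ER residents and empty cargo receptors from the Golgi.

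Most of the differences between the Sar1B and control lines were rises of moderate size. Of 31042 probe sets, 1949 were higher in Sar1B than in control (6.28% of those tested) and 623 were lower (2.01%), by limma with Benjamini-Hochberg adjustment and an adjusted p under 0.05. Over 14217 genes, each represented by its brightest probe set, 671 were higher (4.72%) and 286 lower (2.01%), 6.73% in all. The arrays of the 2 groups did not overlap for 19% of genes. The median called rise was 0.50 and the median called fall 0.45 on the log2 scale, and 40 genes rose and 19 fell by more than 2-fold. The median over all genes was 0.03, and it was -0.02 over the 3555 dimmest genes and 0.12 over the 3554 brightest. Of the dimmest genes 47 were called higher and 90 lower, and of the brightest 313 and 58. The shares of all genes set beside the gene lists below are not matched for signal, so that a bright list can exceed them for that reason. After quantile normalization 1471 probe sets were higher and 1075 lower, so that the share of calls that were higher was 57.8%, against 75.8% as deposited. Leaving out a Sar1B or control line leaves a single line in that group, so that the line itself and the lost replication were not separated. Without control line 2 limma called no probe set, so that no call of any list below could pass without that line. Without control line 1, Sar1B line 1 and Sar1B line 2 the counts were 696, 664 and 270 higher and 236, 66 and 90 lower.

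**Figure D1:**
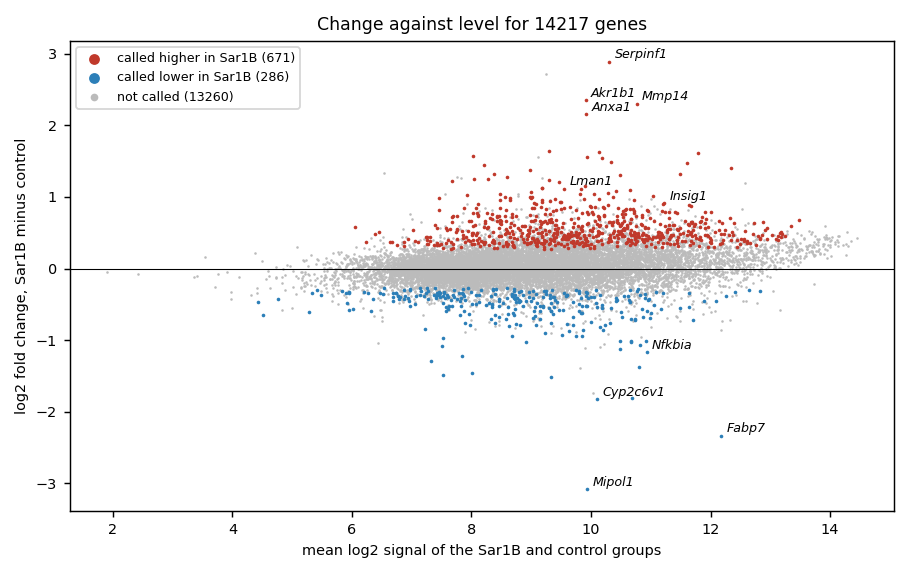
Log2 fold change (Sar1B minus control, y axis) against the mean log2 signal of both groups (x axis) for 14217 genes, 1 point per gene. Called genes are coloured, with 671 higher in Sar1B and 286 lower, and among the 3554 brightest genes 313 were higher and 58 lower.

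Arrays correlated at a median of 0.996 within a Sar1B line, 0.991 between the Sar1B lines, 0.992 between the control lines and 0.978 between Sar1B and control, with 0.989 between Sar1B and Sar1A. Controls of RNA handling differed between the array series. The gap between the 5′ and 3′ signals of 4 poly-A spike-ins (dap, lys, phe and thr) had line means of -0.79 and -0.76 in Sar1B, against -1.74 and -1.63 in control. For β-actin the gap was -0.50 and -0.49 in Sar1B, against -0.94 and -0.81 in control, and for Gapdh -0.18 and -0.14, against -0.33 and -0.24. These gaps moved with every comparison to control, and their part in the results was not tested. A lower signal of a gene in whole cultures cannot tell fewer cells that express it from less RNA per cell.

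The rat probe sets of the Sar1 genes did not pass the test. The probe set of endogenous Sar1b had 11.31 and 11.41 in the Sar1B lines, against 11.52 and 11.39 in the control lines, a difference of -0.09 (SE 0.08, adjusted p = 0.453). Its paralog Sar1a had 12.05 and 11.46 in the Sar1B lines, against 11.47 and 11.31 in the control lines, with 0.37 (SE 0.20, adjusted p = 0.272), and its other probe set -0.07 (adjusted p = 0.831). The brighter Sar1a probe set was at 13.10 in the Sar1A line. The p-values here and below set the difference between group means against the spread between lines of a group. That spread was estimated jointly from the Sar1B, control and Sar1B:H79G lines and moderated by limma. Whether the rat probe sets read the human SAR1B transcript was not tested, so that these values do not measure the construct.

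The largest rise was that of Serpinf1, the secreted serpin PEDF. Its log2 signal was 11.41, 11.64 and 12.16 (lowest, median and highest of 8 arrays) in Sar1B, against 9.30, 9.31, 8.43, 8.47 and 8.37 on the 5 control arrays. The groups did not overlap, as for 19% of all genes, and the difference was 2.89 (SE 0.31, adjusted p = 0.0119) on the log2 scale (SE, standard error), 7.39-fold on the linear scale. Akr1b1, the aldose reductase that turns glucose into sorbitol, was at 10.74, 11.10 and 11.26 (lowest, median and highest of 8 arrays) in Sar1B, against 9.17, 9.14, 8.17, 8.13 and 8.63 on the 5 control arrays, a difference of 2.35 (SE 0.27, adjusted p = 0.0134). Mmp14, a membrane-anchored protease that cleaves collagen, had 11.90 and 11.93 in the Sar1B lines, against 10.13 and 9.09 in the control lines, with 2.30 (SE 0.31, adjusted p = 0.0178). All Sar1B arrays of both genes lay above all control arrays, which the rule that picked the largest rises and falls had required. Control line 2 was the lower control line for both. Anxa1, a phospholipid-binding annexin, was at 10.56, 11.01 and 11.44 (lowest, median and highest of 8 arrays) in Sar1B, against 8.68, 8.58, 9.13, 8.86 and 9.16 on the 5 control arrays, a difference of 2.16 (SE 0.28, adjusted p = 0.0161), and here Sar1B line 1 was the higher line. The Sar1A line was at 8.86 and the Sar1B:H79G lines at 8.26 and 8.68 for Anxa1, near the control lines. For Serpinf1 the Sar1A line was at 9.53 and the Sar1B:H79G lines at 11.62 and 11.44. For Akr1b1 the Sar1A line was at 11.05 and the Sar1B:H79G lines at 11.49 and 11.88.

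**Figure D2:**
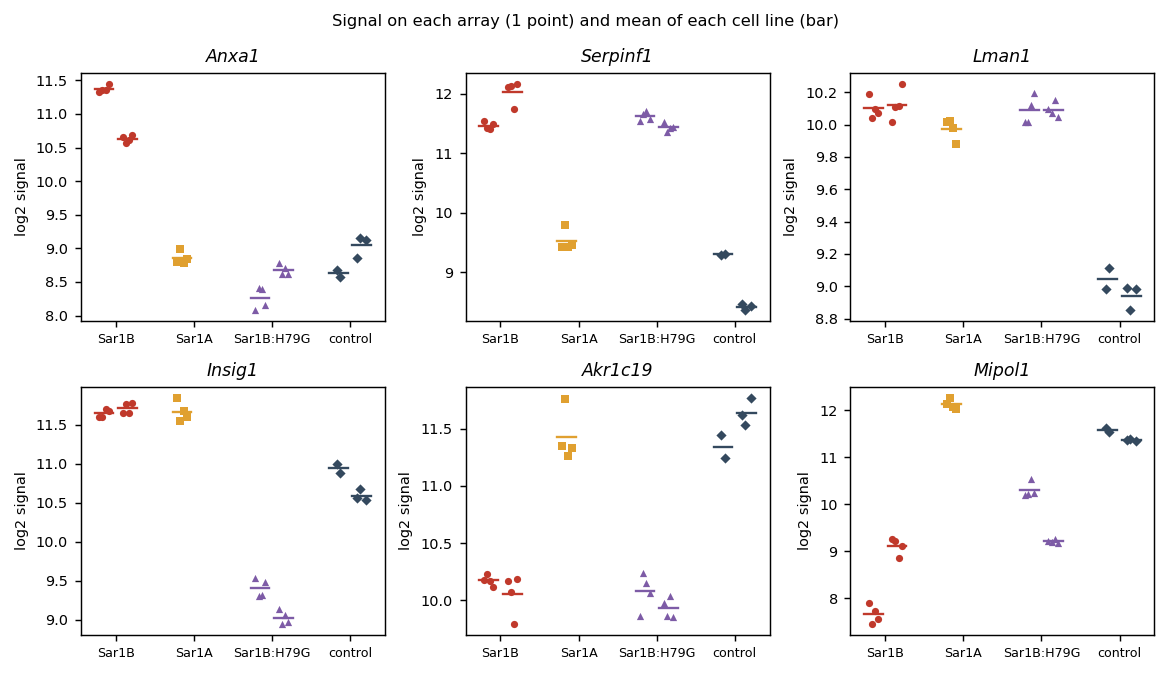
Log2 signal of 6 genes on every array (points) with the mean of each cell line (bars), for Sar1B, Sar1A, Sar1B:H79G and control. Anxa1 was above 10.5 on all Sar1B arrays and below 9.2 on all others, Lman1 was between 9.88 and 10.25 on every Sar1 array and at most 9.11 on the control arrays, and Mipol1 was low in the Sar1B and Sar1B:H79G lines.

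The other 11 of the 15 largest rises lay between 1.38 and 1.64 on the log2 scale. Some act on RNA, chromatin or protein turnover: Nipbl, which loads cohesin, had 9.97 and 10.26 in the Sar1B lines, against 8.61 and 8.34 in the control lines (1.64, adjusted p = 0.0102), and the RNA helicase Ddx6 had 10.96 and 10.95 in the Sar1B lines, against 9.46 and 9.19 in the control lines (1.63, adjusted p = 0.0102). Dnajb6, a co-chaperone of Hsp70, rose by 1.56 (adjusted p = 0.00738), and Nedd4, a ubiquitin ligase, by 1.41 (adjusted p = 0.0119). Others work at the membrane and the matrix. Piezo1, a mechanosensitive channel, rose by 1.57 (adjusted p = 0.0169), the caveolar coat protein Cavin3 by 1.49 (adjusted p = 0.0125) and Trip6, a LIM protein of focal adhesions, by 1.38 (adjusted p = 0.0104). Col5a2, a chain of fibrillar collagen, had 12.64 and 12.57 in the Sar1B lines, against 11.38 and 10.60 in the control lines, and rose by 1.61 (adjusted p = 0.0198). Carboxypeptidase D (Cpd), which trims proteins in the trans-Golgi network, rose by 1.55 (adjusted p = 0.00877), and Tmed3, a p24 adaptor of ER carriers, by 1.44 (adjusted p = 0.00738). Id2, which blocks helix-loop-helix transcription factors, was at 12.28 and 12.41 in the Sar1B lines, against 11.15 and 10.58 in the control lines, and rose by 1.48 (adjusted p = 0.0153). It was at 12.29 in the Sar1A line and 10.12 and 9.94 in the Sar1B:H79G lines. Of the 15 calls among the 15 rises, 13 passed without control line 1 (adjusted p 0.0314 to 0.0662), 0 without control line 2 (0.0823 to 0.143), 13 without Sar1B line 1 (0.0298 to 0.0653) and 10 without Sar1B line 2 (0.0158 to 0.0723). 15 of the 15 passed after quantile normalization.

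Some of these rises held for only part of a gene's probe sets. Id2 had 0.13 (adjusted p = 0.671) at its dimmer probe set, Akr1b1 0.10 (adjusted p = 0.318) and Cpd 0.25 (adjusted p = 0.0973). Nipbl had 1.18 (adjusted p = 0.0421), -0.02 and -0.22 at its other 3 probe sets, the last with an adjusted p of 0.218. For Ddx6 the others gave 0.46 (adjusted p = 0.0262) and 0.42 (adjusted p = 0.0521). Col5a2 gave 1.39 (adjusted p = 0.0185) and Mmp14 0.87 (adjusted p = 0.0443) at the second probe set, both called. Nedd4 ranged between 0.20 and 2.54 over its other 5 probe sets, 4 of which were called higher.

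**Figure D3:**
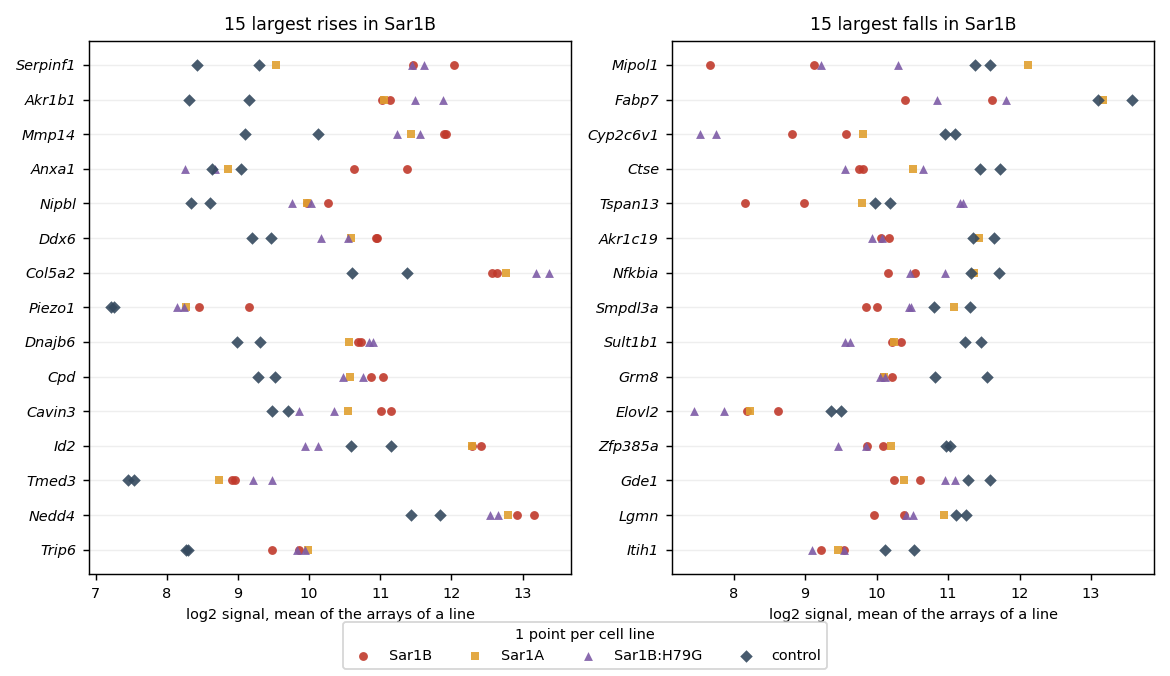
Log2 signal (x axis) of the 15 genes with the largest rises (left) and the 15 with the largest falls (right) in Sar1B against control, 1 point per cell line for Sar1B, Sar1A, Sar1B:H79G and control. Both Sar1B lines lie on 1 side of both control lines for every gene drawn, since genes were picked for arrays without overlap.

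The largest fall was that of Mipol1, whose arrays were at 7.47, 8.38 and 9.27 (lowest, median and highest of 8 arrays) in Sar1B, against 11.63, 11.54, 11.35, 11.37 and 11.39 on the 5 control arrays. The groups did not overlap, as the rule that picked the largest falls had required. Sar1B line 1 was the lower line, and Mipol1 fell by 3.08 (SE 0.52, adjusted p = 0.0266). Fabp7, a cytosolic fatty acid binding protein, was at 10.25, 10.90 and 11.79 (lowest, median and highest of 8 arrays) in Sar1B, against 13.58, 13.58, 13.03, 13.05 and 13.23 on the 5 control arrays, and fell by 2.34 (SE 0.47, adjusted p = 0.0383). The Sar1A line was at the control level or above it for both genes, with 12.12 for Mipol1 and 13.17 for Fabp7, and the Sar1B:H79G lines were lower, with 10.30 and 9.22 and with 11.81 and 10.84. Cyp2c6v1, a drug-metabolizing cytochrome P450, had 8.81 and 9.57 in the Sar1B lines, against 11.09 and 10.95 in the control lines, and fell by 1.83 (SE 0.24, adjusted p = 0.0161). The aspartic protease cathepsin E (Ctse) had 9.75 and 9.80 in the Sar1B lines, against 11.45 and 11.72 in the control lines, and fell by 1.81 (SE 0.33, adjusted p = 0.0305). Tspan13, a tetraspanin, was at 8.16 and 8.98 in the Sar1B lines, against 10.18 and 9.97 in the control lines, and fell by 1.51 (SE 0.25, adjusted p = 0.0249), while the Sar1B:H79G lines were at 11.17 and 11.21.

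Akr1c19, an aldo-keto reductase, had 10.17 and 10.06 in the Sar1B lines, against 11.34 and 11.64 in the control lines, and fell by 1.38 (SE 0.12, adjusted p = 0.00914), with the Sar1A line at 11.43. The sulfotransferase Sult1b1 fell by 1.07 (adjusted p = 0.0102), Elovl2, which elongates polyunsaturated fatty acids, by 1.03 (adjusted p = 0.0316), Smpdl3a, a phosphodiesterase of the acid sphingomyelinase family, by 1.13 (adjusted p = 0.0189) and Gde1, a glycerophosphodiester phosphodiesterase, by 1.01 (adjusted p = 0.0212). Nfkbia, which holds NF-κB in the cytosol, had 10.15 and 10.54 in the Sar1B lines, against 11.71 and 11.31 in the control lines, and fell by 1.17 (SE 0.22, adjusted p = 0.0335). The Sar1A line was at 11.37. The lysosomal protease legumain (Lgmn) fell by 1.01 (adjusted p = 0.0188), the zinc finger gene Zfp385a by 1.02 (adjusted p = 0.0187), the plasma protein gene Itih1 by 0.94 (adjusted p = 0.0459) and the glutamate receptor gene Grm8 by 1.03 (adjusted p = 0.0437). The other Lgmn probe set had -0.06, and those of Grm8 -0.15 and 0.15, none of them called. Of the 15 calls among the 15 falls, 4 passed without control line 1 (adjusted p 0.0314 to 0.126), 0 without control line 2 (0.0823 to 0.238), 5 without Sar1B line 1 (0.0323 to 0.147) and 8 without Sar1B line 2 (0.0158 to 0.151). 15 of the 15 passed after quantile normalization. Without control line 2 the Grm8 difference was -0.67.

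Among genes of the COPII coat, Sec13 and Sec23b were higher in Sar1B, and no member was called lower. Sec13, of the outer cage, had 11.82 and 11.86 in the Sar1B lines, against 11.44 and 11.32 in the control lines, a difference of 0.46 (SE 0.09, adjusted p = 0.0348). Sec23b, the GTPase-activating subunit of the inner coat, had 11.73 and 11.63 in the Sar1B lines, against 11.27 and 11.20 in the control lines, with 0.45 (SE 0.07, adjusted p = 0.0257). The other 13 of 15 measured members did not pass. Of these, the inner coat subunits Sec24b, Sec24c and Sec24d had 0.24, 0.08 and 0.26 (adjusted p = 0.331), and Sec31a, the partner of Sec13, had -0.08 (adjusted p = 0.700). The ER exit site scaffolds Sec16a and Sec16b had -0.0046 and -0.18 (adjusted p = 0.115), the Sar1 exchange factor Preb -0.03, and Tfg, Klhl12, Mia2 and Mia3 0.03, -0.08, 0.03 and -0.01. Preb and Mia2 differed between the Sar1B lines, with 9.86 and 10.49 for Preb and 10.69 and 11.59 for Mia2 in Sar1B lines 1 and 2. The second probe set of Sec24b was lower in Sar1B, by 0.76 (adjusted p = 0.0446). The list median was 0.03, and -0.12 after quantile normalization, where that of all probe sets was 0.03 as deposited and -0.02 after it. Of the list, 13.3% was called higher, against 4.72% of all genes. The study reports on COPII genes from these arrays, so that the list is not independent evidence of a direction. Within the second array series Sec13 was -0.83 (adjusted p = 0.00591) and Sec23b -0.55 (adjusted p = 0.0107) in Sar1B minus Sar1B:H79G. After quantile normalization Sec13 and Sec23b had adjusted p = 0.0815 and 0.0526. Of the 2 calls in the list, 0 passed without control line 1 (adjusted p 0.0663 to 0.0720), 0 without control line 2 (0.162 to 0.193), 0 without Sar1B line 1 (0.0973 to 0.100) and 0 without Sar1B line 2 (0.0790 to 0.135). 0 of the 2 passed after quantile normalization.

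Cargo receptors held the transport genes with the largest changes. Lman1 (ERGIC-53), the lectin that carries coagulation factors V and VIII out of the ER, was at 10.01, 10.10 and 10.25 (lowest, median and highest of 8 arrays) in Sar1B, against 8.98, 9.11, 8.98, 8.99 and 8.86 on the 5 control arrays. No array overlapped between the groups, and the log2 fold change was 1.12 (SE 0.07, adjusted p = 0.00660), 2.17-fold. The Sar1A line was at 9.97 and the Sar1B:H79G lines at 10.09 and 10.09, the level of the Sar1B lines, so that no line of the second array series lay at the control level. Tmed3 had 8.92 and 8.96 in the Sar1B lines, against 7.45 and 7.54 in the control lines, with 1.44 (SE 0.10, adjusted p = 0.00738), and its Sar1A and Sar1B:H79G lines were at 8.73, 9.21 and 9.48. Kdelr2, a receptor that returns KDEL proteins to the ER, rose by 0.41 (adjusted p = 0.0295) and the p24 protein Tmed2 by 0.41 (adjusted p = 0.0336). In all, 4 of 25 measured receptors (16%) were higher, where 4.72% of all genes were, and 0 lower, with a median of 0.12, and -0.07 after quantile normalization. Of 16 COPI and Arf genes, 3 (18.8%) were higher and 0 lower (median 0.20, and 0.07 after quantile normalization): the coatomer subunits Arcn1 by 0.51 (adjusted p = 0.0259), Copg1 by 0.43 (adjusted p = 0.0471) and Copa by 0.31 (adjusted p = 0.0432). Of 37 SNAREs and tethers, 3 (8.11%) were higher and 0 lower (median 0.10, and 0.01 after quantile normalization): the SNARE Ykt6 by 0.58 (adjusted p = 0.0208), the tether Uso1 (p115) by 0.50 (adjusted p = 0.0264) and the Golgi SNARE Gosr1 by 0.46 (adjusted p = 0.0379). None of 13 golgins and stacking proteins passed (limma; median 0.17, and 0.08 after quantile normalization), and the 2 with the largest changes were Gcc2 with 0.67 (adjusted p = 0.0578) and Golm1 with 0.55 (adjusted p = 0.0879). After quantile normalization the adjusted p was 0.0723 for Kdelr2, 0.118 for Tmed2, 0.0714 for Copg1 and 0.305 for Copa, and the other calls of these lists held. For Copg1 the mean of all its probe sets differed by 0.34 (adjusted p = 0.113), for Tmed2 by 0.66 (adjusted p = 0.0269) and for Arcn1 by 0.77 (adjusted p = 0.0208). Of the 10 calls in these lists, 3 passed without control line 1 (adjusted p 0.0314 to 0.0975), 0 without control line 2 (0.0823 to 0.232), 3 without Sar1B line 1 (0.0323 to 0.164) and 2 without Sar1B line 2 (0.0264 to 0.156). 6 of the 10 passed after quantile normalization.

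**Figure D4:**
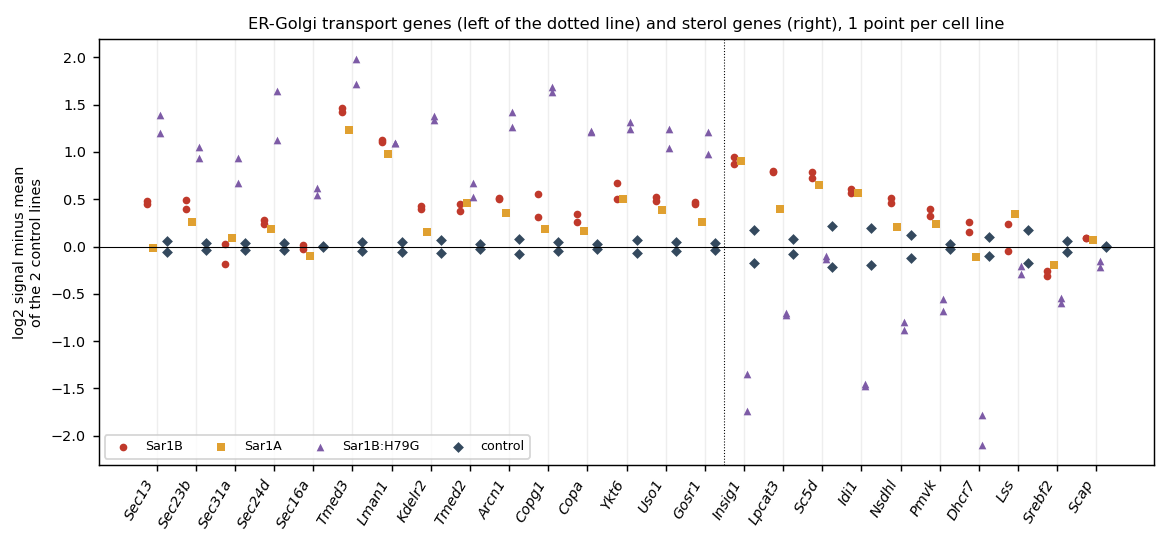
Log2 signal relative to the average of both control lines (y axis) for genes of ER-Golgi transport (left of the dotted line) and of sterol synthesis and its control (right), 1 point per line. Lman1 and Tmed3 stand 0.98 or more above control in every Sar1 line, and Insig1 and Idi1 are above control in the Sar1B and Sar1A lines and below it in the Sar1B:H79G lines.

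In 4 lists of entry into the ER, folding and degradation, 4.76% to 9.3% of the members were called higher, where 4.72% of all genes were. Uggt1, which re-glucosylates misfolded glycoproteins, had 10.20 and 10.59 in the Sar1B lines, against 9.42 and 9.15 in the control lines, a difference of 1.11 (SE 0.15, adjusted p = 0.0177). The translocon channel subunit Sec61a1 rose by 0.67 (adjusted p = 0.0206), the signal peptidase subunit Spcs3 by 0.50 (adjusted p = 0.0257) and the oligosaccharyltransferase subunit Rpn1 by 0.45 (adjusted p = 0.0336). Another oligosaccharyltransferase subunit, Tusc3, fell by 0.34 (adjusted p = 0.0419) at a low signal, so that 4 of 43 members were higher and 1 lower (median 0.07, and -0.06 after quantile normalization). Of 25 ER chaperones 2 were higher and 0 lower (median 0.05, and -0.09 after quantile normalization): calreticulin (Calr), which holds glycoproteins in the folding cycle, by 0.41 (adjusted p = 0.0461) and Pdzd8, an ER membrane protein that moves lipid at contact sites and is no chaperone, by 0.45 (adjusted p = 0.0257). One further probe set of Pdzd8 had -0.13 and was not called, and with the mean of its probe sets the adjusted p was 0.212. Of 21 disulfide isomerases and oxidases, 1 was higher, Tmx3 by 0.70 (adjusted p = 0.0329). Of 27 genes of the unfolded protein response and ER-associated degradation 2 were higher, the ubiquitin-conjugating enzyme Ube2j1 by 0.61 (adjusted p = 0.0210) and the mannose-trimming protein Edem1 by 0.59 (adjusted p = 0.0419), and 0 lower. The ER stress sensor Atf6 had 0.22 (adjusted p = 0.114). Of the 10 calls in these lists, 1 passed without control line 1 (adjusted p 0.04997 to 0.103), 0 without control line 2 (0.104 to 0.228), 1 without Sar1B line 1 (0.0323 to 0.145) and 0 without Sar1B line 2 (0.0522 to 0.159). 7 of the 10 passed after quantile normalization.

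Genes that supply amino acids and charge tRNA were called higher without exception among those that passed. Of 20 aminoacyl-tRNA synthetases, 5 (25%) were higher and 0 lower (median 0.20, and 0.05 after quantile normalization), where 4.72% of all genes were higher. Nars1, for asparagine, had 12.10 and 12.08 in the Sar1B lines, against 11.32 and 11.08 in the control lines, with 0.88 (SE 0.09, adjusted p = 0.0115). Aars1, for alanine, had 12.12 and 12.11 in the Sar1B lines, against 11.40 and 11.09 in the control lines, with 0.87 (SE 0.11, adjusted p = 0.0152). Hars1, Lars1 and Kars1 rose by 0.88 (adjusted p = 0.0165), 0.48 (adjusted p = 0.0395) and 0.45 (adjusted p = 0.0490), and the other Hars1 probe set had 0.06, not called. Of 30 genes of the integrated stress response, which overlaps this group in its known targets, 3 were higher and 0 lower (median 0.21, and 0.10 after quantile normalization): Mthfd2, of mitochondrial one-carbon metabolism, by 0.61 (adjusted p = 0.0338), the amino acid transporter Slc7a5 by 0.56 (adjusted p = 0.0247) and Psat1, of serine synthesis, by 0.48 (adjusted p = 0.0373). In the Sar1A line Nars1 was at 12.22 and Aars1 at 11.93, and in the Sar1B:H79G lines Nars1 at 12.94 and 12.88 and Aars1 at 12.34 and 12.38. Of 37 proteasome genes 6 (16.2%) were higher and 0 lower (median 0.15, and -0.02 after quantile normalization), among them the ubiquitin receptor Psmd4 with 12.54 and 12.48 in the Sar1B lines, against 11.87 and 11.89 in the control lines (0.64, adjusted p = 0.0108) and the activator Psme4 with 0.72 (adjusted p = 0.0283). For Hars1 the mean of all its probe sets differed by 0.47 (adjusted p = 0.0612) and for Psme4 by 0.34 (adjusted p = 0.116). Of the 14 calls in these 3 lists, 5 passed without control line 1 (adjusted p 0.0314 to 0.107), 0 without control line 2 (0.0823 to 0.241), 3 without Sar1B line 1 (0.0399 to 0.157) and 2 without Sar1B line 2 (0.0437 to 0.159). 9 of the 14 passed after quantile normalization.

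Promoters of the members that rose in these ER, transport, sterol and amino acid lists were searched for letters of known response elements (RefSeq, GRCr8, the 300 bases around the gene start, both strands). Of 35 such genes 31 had an entry. TGATGNAA, the core of the amino acid response element that ATF4 binds, was in 3.98% of 33469 rat promoters and in 2 of 8 of the tRNA and stress response genes, Nars1 and Aars1. The ER stress response element (CCAAT, then CCACG after a fixed gap) was in 0.0657% of all promoters and in that of Calr, and TGACGTG, a CRE-like motif, in 1.81% and in those of Copa and Ube2j1. TCACNCCAC, close to the sterol response element, was in 1.12%, in 0 of 5 sterol genes and in that of Copa. The promoters printed each held only 1 of the 4 motifs. Those of Nars1 and Aars1, the synthetases with the element of their pathway, and of Calr are shown 5′ to 3′ with the matches in capitals. A match is a description of letters and not a binding site.
Nars1 (chr18:60275733-60276032, - strand): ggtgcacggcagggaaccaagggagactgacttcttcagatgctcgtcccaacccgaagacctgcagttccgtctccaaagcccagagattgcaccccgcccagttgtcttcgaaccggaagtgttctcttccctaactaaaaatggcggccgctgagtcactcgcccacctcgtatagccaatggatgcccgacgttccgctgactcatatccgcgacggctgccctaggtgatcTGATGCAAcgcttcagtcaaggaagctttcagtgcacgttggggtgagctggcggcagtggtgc
Aars1 (chr19:55908232-55908531, + strand): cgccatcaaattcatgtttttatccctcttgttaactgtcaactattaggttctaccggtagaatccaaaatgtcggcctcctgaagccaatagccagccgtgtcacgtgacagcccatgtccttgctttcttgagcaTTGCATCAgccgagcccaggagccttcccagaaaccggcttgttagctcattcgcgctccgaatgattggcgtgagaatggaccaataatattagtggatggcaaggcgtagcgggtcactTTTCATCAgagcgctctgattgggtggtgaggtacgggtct
Calr (chr19:40213117-40213416, + strand): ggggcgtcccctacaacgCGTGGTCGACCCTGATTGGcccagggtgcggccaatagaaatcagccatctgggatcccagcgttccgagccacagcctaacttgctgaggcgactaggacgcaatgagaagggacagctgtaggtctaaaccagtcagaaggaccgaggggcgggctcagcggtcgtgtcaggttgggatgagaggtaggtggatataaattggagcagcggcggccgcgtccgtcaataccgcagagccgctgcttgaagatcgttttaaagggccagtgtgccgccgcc

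In the lists of cholesterol synthesis and of SREBP processing and LDL receptor control, every call was higher in Sar1B than in control. Insig1, which retains SCAP-SREBP in the ER and is itself an SREBP target, had 11.64 and 11.71 in the Sar1B lines, against 10.94 and 10.59 in the control lines. No array overlapped between the groups, and the log2 fold change was 0.91 (SE 0.16, adjusted p = 0.0288). Lpcat3, a lysophospholipid acyltransferase regulated by LXR, had 12.40 and 12.40 in the Sar1B lines, against 11.68 and 11.53 in the control lines, with 0.79 (SE 0.07, adjusted p = 0.0104). These were 2 of 12 genes in the list of SREBP processing and LDL receptor control, and none was lower. The list median was 0.07, and -0.02 after quantile normalization. Lpcat3 stands in that list but is no gene of SREBP processing. Srebf2 itself had -0.29 (adjusted p = 0.0594) and Scap 0.09 (adjusted p = 0.368), neither called. Of 17 cholesterol synthesis genes, 4 (23.5%) were higher, where 4.72% of all genes were, and 0 lower, with a median of 0.17, and 0.04 after quantile normalization. Sc5d, which introduces the double bond at C5 of the sterol ring, had 10.92 and 10.98 in the Sar1B lines, against 10.40 and 9.98 in the control lines (0.76, adjusted p = 0.0305), and Idi1, the isopentenyl diphosphate isomerase, had 12.23 and 12.28 in the Sar1B lines, against 11.87 and 11.47 in the control lines (0.59, adjusted p = 0.0466). Nsdhl, of sterol demethylation, rose by 0.49 (adjusted p = 0.0360) and Pmvk, a kinase of the mevalonate pathway, by 0.36 (adjusted p = 0.0414). Lss and Dhcr7, which close the sterol ring and finish cholesterol, had 0.10 (adjusted p = 0.690) and 0.21 (adjusted p = 0.326). The other Idi1 probe set rose by 0.99 (adjusted p = 0.0212). For Sc5d the mean of all its probe sets differed by 0.36 (adjusted p = 0.134) and for Nsdhl by 0.35 (adjusted p = 0.117). After quantile normalization the calls of Idi1, Nsdhl and Pmvk were lost (adjusted p = 0.0547, 0.0515 and 0.0994).

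The Sar1A line was close to Sar1B for Insig1 (11.66), Idi1 (12.24) and Sc5d (10.84). Against the Sar1B:H79G lines, in the same array series, Sar1B was higher by 2.45 (adjusted p = 0.00204) for Insig1, 2.05 (adjusted p = 0.00204) for Idi1, 1.51 (adjusted p = 0.00152) for Lpcat3 and 2.15 (adjusted p = 0.00189) for Dhcr7, and 15 of 17 cholesterol genes were higher and 0 lower, where 7.18% of all genes were higher and 4.90% lower. The study reports these genes from these arrays. Of the 6 calls against control in these lists, 4 passed without control line 1 (adjusted p 0.0320 to 0.0888), 0 without control line 2 (0.0823 to 0.205), 1 without Sar1B line 1 (0.0361 to 0.149) and 1 without Sar1B line 2 (0.0437 to 0.159). 3 of the 6 passed after quantile normalization. Without control line 2 the Idi1 difference was 0.39.

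Fatty acid and glycerolipid genes were called higher in at most 6.06% of a list, where 4.72% of all genes were. Of 25 genes of fatty acid synthesis and desaturation, 1 was lower (Elovl2) and 0 higher, with a median of 0.18, and 0.03 after quantile normalization. Acsl5, which activates long-chain fatty acids, had 12.59 and 12.46 in the Sar1B lines, against 12.18 and 11.91 in the control lines, a difference of 0.48 that did not pass. Of 25 genes of fatty acid oxidation and ketone bodies 1 was higher, the thiolase Acaa2, with 11.60 and 11.74 in the Sar1B lines, against 11.15 and 10.98 in the control lines (0.61, adjusted p = 0.0188; 0.02 at its other probe set, not called). Of 33 glycerolipid genes 2 were higher and 1 lower (median 0.12, and 0.04 after quantile normalization). Gpam, which starts glycerolipid synthesis at the mitochondrion, had 8.60 and 8.49 in the Sar1B lines, against 8.09 and 7.85 in the control lines (0.57, adjusted p = 0.0409). Of 2 acyltransferases of the next step, Agpat3 had 9.35 and 9.42 in the Sar1B lines, against 9.10 and 8.96 in the control lines (0.36, adjusted p = 0.0443), and Agpat4 had 8.70 and 8.65 in the Sar1B lines, against 8.99 and 8.98 in the control lines (-0.31, adjusted p = 0.0384). For Agpat3 the mean of all its probe sets differed by 0.14 (adjusted p = 0.337), for Gpam by 0.61 (adjusted p = 0.126) and for Acaa2 by 0.31 (adjusted p = 0.0771). Of the 5 calls in these 3 lists, 1 passed without control line 1 (adjusted p 0.0438 to 0.0902), 0 without control line 2 (0.128 to 0.212), 1 without Sar1B line 1 (0.0465 to 0.136) and 0 without Sar1B line 2 (0.0514 to 0.176). 4 of the 5 passed after quantile normalization.

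The genes at the core of lipoprotein assembly did not pass the test. Apob had 11.84 and 12.59 in the Sar1B lines, against 12.13 and 11.50 in the control lines, with 0.40 (SE 0.34, adjusted p = 0.481), and Sar1B line 2 was the only Sar1B line above both control lines. Mttp, which transfers lipid to apoB in the ER, had 11.20 and 11.02 in the Sar1B lines, against 10.77 and 10.67 in the control lines, with 0.39 (SE 0.37, adjusted p = 0.519). Both Sar1B lines were above both control lines, and the difference did not pass the threshold. The Sar1A line was at 9.78 and the Sar1B:H79G lines at 8.31 and 9.56. Factors of the editing that makes apoB48 were named after their values had been seen. A1cf, which guides the editing enzyme, had 9.12 and 9.15 in the Sar1B lines, against 8.27 and 8.03 in the control lines, with 0.99 (SE 0.11, adjusted p = 0.0126), whereas the deaminase Apobec1 had 7.29 and 7.46 in the Sar1B lines, against 7.32 and 6.95 in the control lines, with 0.24 (SE 0.13, adjusted p = 0.276). Of 25 apolipoprotein and assembly genes, 1 was higher (4%) and 2 were lower (8%), where 4.72% and 2.01% of all genes were (median -0.01, and -0.06 after quantile normalization). Lcat, the plasma enzyme that esterifies cholesterol on HDL, had 9.05 and 9.35 in the Sar1B lines, against 10.27 and 9.88 in the control lines, and fell by 0.87 (SE 0.15, adjusted p = 0.0294). Apon fell by 0.64 (adjusted p = 0.0181), and the HDL receptor Scarb1 rose by 0.35 (adjusted p = 0.0401). Of the 3 calls in the list, 0 passed without control line 1 (adjusted p 0.0545 to 0.0789), 0 without control line 2 (0.100 to 0.193), 1 without Sar1B line 1 (0.0487 to 0.138) and 0 without Sar1B line 2 (0.0623 to 0.137). 2 of the 3 passed after quantile normalization.

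Serpins and acute phase genes went both ways. Serpins had 3 members higher and 3 lower of 22 measured (13.6% each, where 4.72% of all genes were higher and 2.01% lower; median -0.11). Beside Serpinf1, Agt (angiotensinogen) had 8.66 and 9.24 in the Sar1B lines, against 8.17 and 7.82 in the control lines (0.96, adjusted p = 0.0495) and Serpinb9, an inhibitor of granzyme B, rose by 0.31 (adjusted p = 0.0466). Serpina3n had 7.10 and 7.38 in the Sar1B lines, against 8.19 and 8.73 in the control lines, and fell by 1.22 (SE 0.18, adjusted p = 0.0211), Serpind1 (heparin cofactor II) had 7.99 and 8.42 in the Sar1B lines, against 9.01 and 9.28 in the control lines, and fell by 0.94 (SE 0.16, adjusted p = 0.0282), and Serpina3c fell by 0.28 (adjusted p = 0.0476). Serpind1 was also the only call among 17 coagulation genes (median -0.07, and -0.13 after quantile normalization); the fibrinogen chain gene Fgg had 13.35 and 13.01 in the Sar1B lines, against 12.52 and 11.44 in the control lines, with 1.20 (adjusted p = 0.0761), and control line 2 was well below control line 1. Of 34 acute phase and complement genes 1 was higher, C8b by 0.35 (adjusted p = 0.0379), and 2 were lower, Itih1 and C4bpb, the β chain of C4b-binding protein, which fell by 0.94 (adjusted p = 0.0266). Lbp, the lipopolysaccharide-binding protein, had the largest difference of that list, 2.72, but did not pass (adjusted p = 0.166), with 11.52 and 9.71 in the Sar1B lines, against 7.92 and 7.86 in the control lines. It was named after its value had been seen. Of the 9 calls among serpins and acute phase genes, 2 passed without control line 1 (adjusted p 0.0321 to 0.105), 0 without control line 2 (0.0862 to 0.257), 3 without Sar1B line 1 (0.0339 to 0.171) and 3 without Sar1B line 2 (0.0264 to 0.196). 8 of the 9 passed after quantile normalization. The Serpind1 call held without Sar1B line 2 (adjusted p = 0.0429) and in none of the other 3 cases.

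Liver transcription factors that passed were higher, 4 of 23 (17.4%) with 0 lower (median 0.10, and 0.02 after quantile normalization), where 4.72% of all genes were higher. Onecut1 (HNF6) had 8.69 and 8.89 in the Sar1B lines, against 8.18 and 7.92 in the control lines (0.74, adjusted p = 0.0247), Foxa3 had 8.53 and 8.42 in the Sar1B lines, against 7.77 and 7.72 in the control lines (0.73, adjusted p = 0.0206) and Foxa2 had 10.97 and 10.71 in the Sar1B lines, against 10.29 and 10.13 in the control lines (0.63, adjusted p = 0.0249). These factors open and activate hepatocyte genes. The nuclear receptor Rora rose by 0.56 (adjusted p = 0.0330), with 0.02 at its other probe set. For Rora the mean of all its probe sets differed by 0.29 (adjusted p = 0.0934). Of 38 cytochrome P450 and flavin monooxygenase genes, 3 (7.89%) were lower, where 2.01% of all genes were, and 0 higher (median -0.09, and -0.15 after quantile normalization): Cyp2c6v1, Cyp2d2 with 7.52 and 7.55 in the Sar1B lines, against 7.97 and 7.96 in the control lines (-0.43, adjusted p = 0.0185) and Cyp7b1, the oxysterol hydroxylase, with -0.32 (adjusted p = 0.0476). Of 36 phase II genes Sult1b1 was lower and the glutathione transferase Gstm2 higher, with 8.64 and 8.48 in the Sar1B lines, against 8.004 and 7.79 in the control lines (0.67, adjusted p = 0.0199). Of 30 NRF2 targets, Nqo1, a quinone reductase, was higher by 0.59 (adjusted p = 0.0392) and 0 were lower (median 0.25, and 0.04 after quantile normalization). Of the 10 calls in these lists, 3 passed without control line 1 (adjusted p 0.0368 to 0.0966), 0 without control line 2 (0.0823 to 0.218), 2 without Sar1B line 1 (0.0323 to 0.172) and 4 without Sar1B line 2 (0.0158 to 0.127). 9 of the 10 passed after quantile normalization.

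In carbohydrate metabolism Pygl, the liver glycogen phosphorylase, had 9.97 and 10.40 in the Sar1B lines, against 10.93 and 10.78 in the control lines, and fell by 0.67 (SE 0.14, adjusted p = 0.0421), the only call among 21 gluconeogenesis and glycerol genes (median 0.02, and -0.02 after quantile normalization). Of 29 glycolysis and hypoxia genes the mitophagy receptor Bnip3l was lower, with 10.30 and 10.44 in the Sar1B lines, against 11.18 and 11.01 in the control lines (-0.72, adjusted p = 0.0153), and the oxygen sensor Egln1 higher (0.34, adjusted p = 0.0401). For Egln1 the mean of all its probe sets differed by 0.24 (adjusted p = 0.0871). Of 43 genes of the urea cycle and amino acid breakdown, Kmo, of the kynurenine pathway, fell by 0.76 (adjusted p = 0.0185), Aldh4a1, of proline breakdown, rose by 0.66 (adjusted p = 0.0480) and Bhmt, which remethylates homocysteine, by 0.33 (adjusted p = 0.0432) at a low signal. No hepatocyte membrane transporter of 25 passed (limma; median -0.02, and -0.05 after quantile normalization), and the largest differences were 0.83 (adjusted p = 0.0850) for Abcb1a and -0.80 (adjusted p = 0.0708) for Abcc4. Of the 6 calls in these lists, 0 passed without control line 1 (adjusted p 0.0512 to 0.131), 0 without control line 2 (0.100 to 0.244), 1 without Sar1B line 1 (0.0324 to 0.162) and 2 without Sar1B line 2 (0.0407 to 0.157). 4 of the 6 passed after quantile normalization. Without Sar1B line 2 the Aldh4a1 difference was 0.43. At most 4.65% of a list of this paragraph was called higher and at most 4.76% lower. Over all genes the shares were 4.72% and 2.01%.

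Matrix and adhesion genes had 5 of 41 members (12.2%) higher, where 4.72% of all genes were, and 0 lower, with a median of 0.0049, and -0.06 after quantile normalization. Beside Mmp14 and Col5a2 they were Cd44, the hyaluronan receptor, with 11.18 and 10.83 in the Sar1B lines, against 10.32 and 10.03 in the control lines (0.83, adjusted p = 0.0455), the laminin chain Lamc1 with 10.74 and 10.43 in the Sar1B lines, against 9.87 and 9.80 in the control lines (0.75, adjusted p = 0.0196) and fibronectin (Fn1) with 13.75 and 13.91 in the Sar1B lines, against 13.33 and 12.96 in the control lines (0.68, adjusted p = 0.0351). Of 49 cell cycle genes, 4 were higher and 1 lower (median 0.11, and 0.01 after quantile normalization): cyclin D2 (Ccnd2) by 0.84 (adjusted p = 0.0217), the spindle checkpoint gene Mad2l1 by 0.70 (adjusted p = 0.0162), thymidine kinase Tk1 by 0.67 (adjusted p = 0.0209) and the S-phase factor E2f1 by 0.52 (adjusted p = 0.0178), and Gins1, of the replicative helicase, fell by 0.33 (adjusted p = 0.0487). Of 30 interferon and antigen presentation genes 4 were higher and 0 lower, Ifi44, Ifih1, Ifi44l and the immunoproteasome subunit Psmb10, with 0.74, 0.51, 0.32 and 0.31, and the median was 0.32. The mean signal of that list was 9.20 and 8.59 in Sar1B lines 1 and 2, against 8.53 and 8.60 in the control lines, so that only Sar1B line 1 stood above both. For Cd44 the mean of all its probe sets differed by 0.72 (adjusted p = 0.0515) and for Tk1 by 0.41 (adjusted p = 0.0288). Of the 14 calls in these 3 lists, 5 passed without control line 1 (adjusted p 0.0314 to 0.117), 0 without control line 2 (0.0823 to 0.241), 1 without Sar1B line 1 (0.0474 to 0.174) and 2 without Sar1B line 2 (0.0324 to 0.164). 10 of the 14 passed after quantile normalization.

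The immediate early genes Ier2 and Junb rose by 0.68 (adjusted p = 0.0220) and 0.54 (adjusted p = 0.0305), 2 of 31 in their list (median 0.12), and the p53 target Sesn1 fell by 0.42 (adjusted p = 0.0255), 1 of 23 (median 0.08, and 0.01 after quantile normalization). Errfi1, a feedback inhibitor of EGF receptor signalling, rose by 0.50 (adjusted p = 0.0340), the only call of 17 glucocorticoid response genes (median 0.01, and -0.07 after quantile normalization). Among 68 respiratory chain genes, Atp5f1a was higher (0.51, adjusted p = 0.0223) and 0 lower (median 0.07, and -0.13 after quantile normalization). None of 42 ribosomal protein genes was called (limma), and 40 of the 42 differences were positive as deposited but 16 after quantile normalization (median 0.26, and -0.03 after quantile normalization). These are among the brightest probe sets, and the median of the 3554 brightest genes was 0.12. Of 51 lysosomal genes Lgmn was lower and the proton pump subunit Atp6v1e1 higher (0.43, adjusted p = 0.0402), and of 53 Rab GTPases Rab14, of endosome to Golgi traffic, was higher (0.65, adjusted p = 0.0181) and Rab26 lower (-0.49, adjusted p = 0.0483). For Sesn1 the mean of all its probe sets differed by -0.11 (adjusted p = 0.409) and for Rab14 by 0.57 (adjusted p = 0.0553). Of the 9 calls in these lists, 6 passed without control line 1 (adjusted p 0.0379 to 0.0750), 0 without control line 2 (0.105 to 0.162), 2 without Sar1B line 1 (0.0323 to 0.150) and 1 without Sar1B line 2 (0.0445 to 0.147). 7 of the 9 passed after quantile normalization. At most 6.45% of a list of this paragraph was called higher and at most 4.35% lower, where 4.72% and 2.01% of all genes were.

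**Figure D5:**
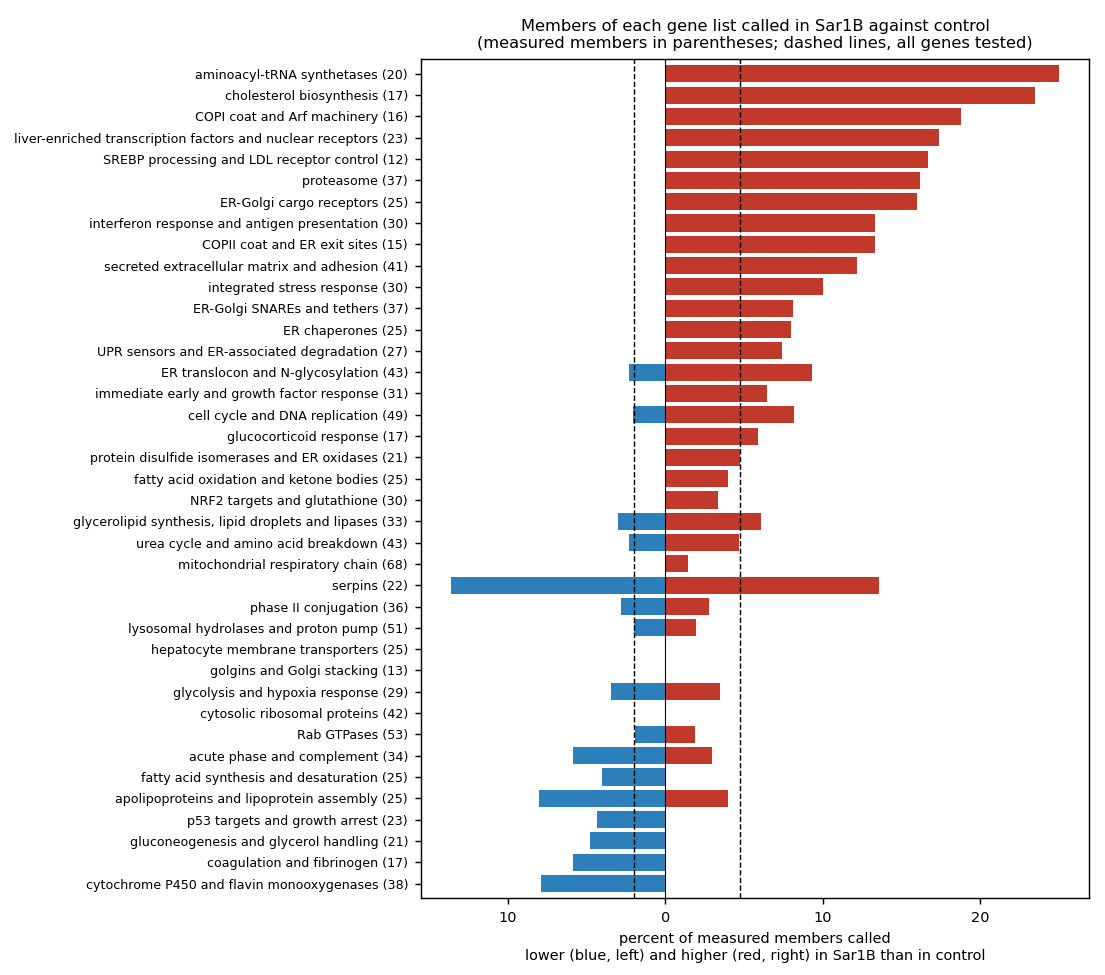
Percent of the measured members of each of 39 gene lists that were called higher (red, right) and lower (blue, left) in Sar1B than in control, with the number measured in parentheses. Dashed lines mark the share of all 14217 genes, 4.72% higher and 2.01% lower, not matched for signal. Lists are ordered by the percent higher minus the percent lower. Aminoacyl-tRNA synthetases (25% higher) and cholesterol synthesis (23.5% higher) stand at the top and cytochrome P450 genes (7.89% lower) at the bottom. Larger shares were lower among serpins (13.6%) and apolipoprotein genes (8%).

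Because the control lines lie in another array series, levels in the lines that share the series of Sar1B are given beside some of the calls. Some genes differed from control in Sar1B and, in the same direction, from the Sar1B:H79G lines; they were picked after their values had been seen. Anxa1 was higher than in Sar1B:H79G by 2.53 (adjusted p = 0.00610) and Psca, a GPI-anchored surface protein, by 1.17 (adjusted p = 0.0153); Psca had 9.38 and 9.58 in the Sar1B lines, against 8.37 and 8.60 in the control lines, with 0.99 (adjusted p = 0.0305) against control, and the Sar1A line was at 8.06. Slc16a12, a creatine transporter, had 8.97 and 9.29 in the Sar1B lines, against 8.13 and 8.21 in the control lines (0.96, adjusted p = 0.0154), with the Sar1A line at 8.56 and the Sar1B:H79G lines at 8.02 and 7.86. The BMP receptor Bmpr2 and the caspase inhibitor Xiap rose by 1.32 (adjusted p = 0.00738) and 0.97 (adjusted p = 0.00738) against control and were above the Sar1B:H79G lines by 0.44 (adjusted p = 0.0273) and 0.59 (adjusted p = 0.00655). For Bmpr2 the mean of all its probe sets differed by 0.66 (adjusted p = 0.0208). On the lower side, Selenom, an ER selenoprotein, had 8.33 and 8.39 in the Sar1B lines, against 9.03 and 9.24 in the control lines (-0.78, adjusted p = 0.0122), and Ttf1, a termination factor of rDNA transcription, had 8.57 and 8.78 in the Sar1B lines, against 9.38 and 9.36 in the control lines (-0.70, adjusted p = 0.0142). They were at 8.94 and 9.65 in the Sar1A line and at 9.32 and 9.32 (Selenom) and 9.70 and 9.66 (Ttf1) in the Sar1B:H79G lines. Tm9sf2, Rrs1, Nudt22, Cmtm3 and Churc1 were likewise lower, by 0.71, 0.62, 0.65, 0.59 and 0.70 against control. Of the 20 calls against control of the 20 such genes with the largest changes, 9 passed without control line 1 (adjusted p 0.0314 to 0.103), 0 without control line 2 (0.0823 to 0.173), 13 without Sar1B line 1 (0.0323 to 0.0825) and 7 without Sar1B line 2 (0.0158 to 0.117). 20 of the 20 passed after quantile normalization.

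Within the second series, 1643 probe sets were higher and 1037 lower in Sar1B than in Sar1B:H79G, 8.63% called in all. Between Sar1B and the single Sar1A line, 1 probe set of 31042 was called, 0.00322% (2036 at an unadjusted p below 0.05): Rab37, a Rab GTPase of secretory granules, had 7.83 and 7.80 in the Sar1B lines, against 10.66 in the Sar1A line, a difference of -2.84 (adjusted p = 0.00171). It was 7.87 and 7.95 in the control lines. With 1 Sar1A line, whose spread had to be taken from the other groups, this count says little about how far the isoforms differ.

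Markers of hepatoma and of other cell types were read in the lines. Afp, a fetal liver protein that marks hepatoma, was at 14.28 and 14.49 in the Sar1B lines, against 14.24 and 13.87 in the control lines. The fetal liver or hepatoma list has 4 measured members, Afp among them. Its median signal was 8.08 in Sar1B and 7.89 in control, below the median signal of an array. Hepatocyte markers had a median signal of 12.39 in Sar1B and 12.10 in control. Albumin (Alb) was at 10.61 and 10.96 in the Sar1B lines, against 12.15 and 10.66 in the control lines, with -0.62 (adjusted p = 0.394). No marker of any of the 7 lists was called (limma). Medians of the endothelial, macrophage, lymphocyte, cholangiocyte and stellate or fibroblast lists lay between 7.11 and 7.78 in Sar1B and between 7.03 and 7.97 in control, below the median signal of an array. Spp1, from the cholangiocyte list, differed between the Sar1B lines more than between the groups, with 12.50 and 9.73 in the Sar1B lines, against 11.51 and 11.16 in the control lines.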

How the data were processed

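RNA of stable McArdle-RH7777 lines had been hybridised to Affymetrix whole-genome rat arrays. The deposited log2 values had been made by the authors with MAS 5 and loess normalization in CARMAweb; the base of the logarithm was read from their range, and no detection calls were used here. Of 31099 probe sets, 57 controls of the array entered no test and 31042 were tested. Of these, 20826 had 1 gene symbol, 436 several and 9780 none in the platform table. A gene was represented by its brightest probe set over all 25 arrays (14217 genes), and 20758 probe sets matched the GRCr8 gene table by gene ID. Arrays lack a count of depth, and the number of lines limits the precision.

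Arrays of a line were averaged. A limma model (version 3.58.1, R 4.3.3) with a coefficient per group was fitted to the 7 line means, with 3 residual degrees of freedom, and p-values were adjusted by Benjamini-Hochberg over 31042 probe sets (threshold 0.05). On simulated data, 43% of changes of 0.5, 76% of changes of 1 and 98% of changes of 2 (log2) were called. This was the comparison of Sar1B with control, with 200 of 31042 probe sets changed, and 6 unchanged ones were called. Spreads were shuffled between probe sets, errors were independent, and no difference between array series was added. The shares therefore do not cover the confound of group with array series. In the data 2572 probe sets were called, and shares under Benjamini-Hochberg depend on how many probe sets are changed. The simulated shares are thus no estimate for the real comparison. Genes were named by a rule: the 15 largest rises and falls that passed, with no overlap of arrays and a mean signal over that of the median probe set, per list the called genes with the largest changes (up to 4, or 2 uncalled ones where no member passed), all COPII members, and genes the study names. The members and lists were chosen with earlier results of these data known. Alternatives changed the replicate unit, the scaling, the filter on dim probe sets, the groups in the fit, the variance model, the threshold and the probe set rule, or left out a line. Leaving out a Sar1B:H79G line was added after the data had been seen. No array was identical to another.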

Additional observations from a re-analysis of the deposited data

Results flagged for a closer look

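Of 76 values tested for 1 array far from the others of its group, 8 stood apart; chance would flag about 1 in 20 groups, and the arrays of a line are technical replicates. Among the 8 Sar1B arrays, array 2 of line 2 had a mean correlation of 0.993 with the other arrays of its line (others 0.995 to 0.997). The same array was low for Akr1b1 (10.74, others 11.09 to 11.26), Col5a2 (12.47, others 12.58 to 12.67) and Akr1c19 (9.80, others 10.07 to 10.23). Array 2 of Sar1B line 1 was high for Grm8 (10.46, others 10.02 to 10.17). Among the 5 control arrays, array 1 of line 1 was high for Cpd (9.84, others 9.21 to 9.39) and Nedd4 (12.19, others 11.32 to 11.57). That control array was also low for Tmed3 (7.30, others 7.52 to 7.60). Most flags thus came from the same few arrays and are not independent of each other. In none of these genes did the arrays of Sar1B and control overlap, which the rule that named them had required.

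The 5′ probe sets of the poly-A spike-ins, which enter no comparison of genes, averaged 10.55 in the Sar1B lines, against 9.17 to 9.63 in the control lines. Their part in the results was not tested.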

How the results depend on the processing

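Probe sets higher in Sar1B than in control numbered 8318 and lower ones 4775 with each array as a replicate, 5659 and 2541 with the line as a random block, and 57 and 5 at an adjusted p under 0.01. Lower ones were 1075 after quantile normalization, 249 among the brighter probe sets and 1074 with trend and robust moderation. Leaving out 1 line gave 0 to 2091 higher and 0 to 607 lower. Against Sar1A, 1974 were higher and 1238 lower per array, 729 and 462 with the random block and 6 and 4 with trend and robust moderation, and 0 to 11 and 0 to 15 without 1 line. Against Sar1B:H79G, 5752 were higher and 4117 lower per array, 4185 and 2694 with the random block and 473 and 314 at an adjusted p under 0.01, and without 1 line there were 732 to 1388 higher and 500 to 1056 lower. The cause of these shifts was not tested. The line number only names a line: the deviations of Sar1B and control lines of the same number correlated at 0.0071, and with that number as a replicate block 1557 probe sets were higher and 448 lower.

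Differences from control that changed sign all belonged to genes that did not pass. With the mean of all probe sets Sec24b was at -0.26, Sec16a at 0.23 and Mia3 at 0.11. Among genes with 1 probe set, the calls of Fabp7, Itih1, Copa, Calr, Pmvk, Agt, Cyp7b1, Nqo1, Pygl, Aldh4a1, Bhmt, Ifih1, Ifi44l, Atp6v1e1 and Rab26 were lost there at the same difference (adjusted p = 0.0510 to 0.0634), since other features were tested. After quantile normalization Sec24c was at -0.047, Tfg at -0.15, Mia2 at -0.10, Lss at -8.6e-04 and Scap at -0.028, and with arrays shifted to 1 median Tfg was at -0.0056 and Mia2 at -0.013. Leaving out 1 line gave -0.18 to 0.030 for Sec31a, -0.023 to 0.014 for Sec16a, -0.34 to 0.29 for Preb, -0.0059 to 0.071 for Tfg, -0.20 to 0.033 for Klhl12, -0.43 to 0.48 for Mia2, -0.030 to 0.016 for Mia3 and -0.081 to 0.28 for Lss. Of 46 list medians, 19 changed sign after quantile normalization and 6 with arrays shifted to 1 median, so that the direction of those medians depends on the scaling. Sar1B and control held 2 lines each, so that a call rests on few samples, and the loss of calls was largest without control line 2. Depth is not a measure of these arrays, and dim probe sets had no detection calls here.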
